A study of Schizosaccharomyces pombe with 6 samples.

Results

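The 511 long transcribed stretches described here are runs of at least 30 neighbouring tiling-array probes of one strand that all detected RNA in the whole-cell input of the fission yeast Schizosaccharomyces pombe. They were chosen from the input channel alone. A probe of the dense tiling (147000 probes, numbered in sequence, odd numbers on one strand and even numbers on the other) was called on when its input signal was flagged well above background on 6 of 6 arrays. A stretch was a run of on probes of one strand that bridged single off probes and began and ended on, and 511 of the 8764 stretches of any length reached 30 probes. Each was read from side A, its low-numbered end for odd probes and its high-numbered end for even probes, to side B at the opposite end. The sources used here pair no probe with a position, a gene or a sequence, so stretches are named by their lowest and highest probe, and which side is the 5′ end of the RNA is not given. No probe sequence was printed for the same reason.

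The arrays compared RNA that co-purified with a tagged protein against total RNA of the same strain. There were 3 groups, in which Red1, Mtl1 or Red5 carried a C-terminal Flag-TEV-protein A tag (FTP), each with 2 replicates and 1 array per replicate. The published strain list gives the Red5-FTP strain another mating type and another ade6 allele than the Red1-FTP and Mtl1-FTP strains. Bait and strain background therefore cannot be told apart in comparisons with Red5-FTP. All strains were grown in YEA medium at 30 °C. Purified RNA (IP) was labelled with Cy5 and the total RNA of the whole-cell extract (input) with Cy3 on every array, so that dye and fraction cannot be told apart, and no untagged control purification was analysed here. All values below are the log2 ratio of IP over input, centred on each array's median over all probes, or the log2 signal of one channel centred on that channel's median. Because the channels were centred separately, IP minus input signal does not equal the ratio, whereas differences between positions do.

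Mtl1, an RNA helicase related to Mtr4, and the zinc-finger protein Red1 form the core of the MTREC complex of the nucleus, and Red5 is a zinc-finger subunit that joins it together with the poly(A)-binding protein Pab2. The complex hands selected transcripts to the nuclear exosome, the ribonuclease particle that degrades RNA from its 3′ end. Cryptic unstable transcripts, meiotic mRNAs made during vegetative growth and unspliced pre-mRNAs are known classes of such transcripts, while most stable mRNAs leave the nucleus. A co-purification ratio followed along a transcript therefore shows which portions of an RNA region are recovered with the complex relative to their abundance in the cell.

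Probes flagged well above background made up 55.3 to 67.3% of the tiling in the IP channel and 47.1 to 57.5% in the input channel, and 0 were saturated. Slides held different sets of arrays: slide 1 the replicate 1 arrays of all baits, slide 3 the replicate 2 array of Mtl1-FTP alone, and slide 2 the remaining replicate 2 arrays. The input of the array on slide 3 had the highest share above background (57.5%). With 2 arrays a bait, the number of arrays limits the precision, and p-values measure the spread between these arrays.

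The 511 stretches held 20788 of the 59896 on probes (34.7%). Of these stretches 271 were odd-numbered and 240 even-numbered, and their lengths ran from 30 to 139 probes with a median of 38. There were 275 of 30 to 39 probes, 131 of 40 to 49, 85 of 50 to 74 and 20 of 75 or more. Bridged off probes were 5.77% of the probes spanned, and 93 stretches had none. Few probes of the opposite strand were on by the same rule of 6 of 6 arrays, with a median of 10.9%. In 449 stretches at most 30% were on, called a quiet opposite strand below. A probe detected on fewer arrays counted as off, so off does not mean silent. The odd and even numbers behaved as separate strands in the input: neighbouring numbers had a correlation of -0.19 across probes, and numbers 2 apart one of 0.72. At the length limit, the 34 stretches of exactly 30 probes had a mean ratio of -0.07 and the 46 stretches of 29 probes one of -0.12. The label also held in the IP channel, where the bins along the stretches had 94.1 to 97.1% of their probes flagged well above background as the mean of the arrays, and between 88.8 and 99.4% on single arrays, with the lowest shares on replicate 1 of Red5-FTP.

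Along the stretches, IP over input was highest at side A and lower towards side B. Each stretch was cut into 10 bins of equal length, numbered from side A. The ratio averaged 0.05 ± 0.19 (SD, n = 6 arrays) in bin 1, -0.27 ± 0.30 in bin 4, -0.36 ± 0.32 in bin 7 and -0.39 ± 0.20 in bin 10. Bin 1 was the highest on every array. On replicate 2 of Mtl1-FTP the B end (last 3 bins) at -0.50 lay above the middle at -0.59, and on the other 5 arrays below it. The A end (first 3 bins) averaged -0.08 ± 0.23 and the B end -0.38 ± 0.25 over the arrays, spreads that are mostly shifts of whole arrays.

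**Figure D1:**
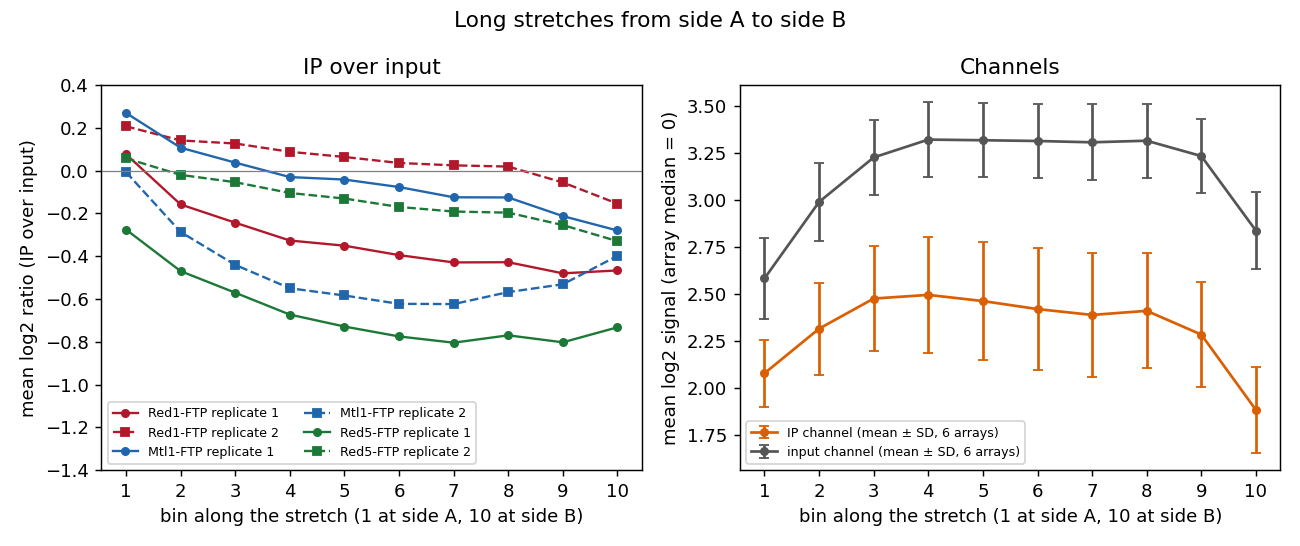
Mean log2 ratio of IP over input by bin of the 511 long stretches, 1 line an array (left), and the mean log2 signals of the IP and input channels with the SD of 6 arrays as bars (right). Ratios were highest in bin 1 on all 6 arrays, and both channels were lower in the outer bins than in the middle, the input more so at side A.

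The difference of the A end minus the B end within an array was steadier than either level. It was 0.35 and 0.22 for Red1-FTP replicates 1 and 2, 0.34 and 0.25 for Mtl1-FTP, and 0.33 and 0.25 for Red5-FTP. All 6 values lay above 0, and their mean was 0.29 ± 0.055 (SD, n = 6). The means of the 3 baits lay within the spread of their replicates, at 0.29 ± 0.090 for Red1-FTP, 0.30 ± 0.063 for Mtl1-FTP and 0.29 ± 0.053 for Red5-FTP (SD, n = 2 each). By slide the difference averaged 0.34 on slide 1, 0.24 on slide 2 and 0.25 on slide 3. Flipping the signs of the 6 array values in all ways, an exact permutation test (two-sided), gave p = 0.031, the smallest it can give. Benjamini-Hochberg adjustment over the 8 contrasts of this kind gave 0.05, which is at and not under the threshold of 0.05. This test and the other exact tests below treat the 6 arrays as independent and ignore the slides that they share.

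The channels differed with opposite signs, with less spread between arrays in the input than in the IP. The input signal of the A end minus the B end was -0.20 ± 0.021 and below 0 on all 6 arrays, between -0.23 and -0.16. The IP signal of the A end minus the B end was 0.10 ± 0.068 and above 0 on all 6 arrays, but small in replicate 2 of Red1-FTP (0.02) and of Mtl1-FTP (0.03), against 0.19 and 0.15 in their replicates 1. The exact adjusted p was 0.05 for each channel. That of the input came from the same input arrays that chose the stretches, so it is no independent support. The ratio holds this input too, so the same limit applies to its p-value and to the limma calls on the end difference below. The IP difference depended on how ends and stretches were set: it was 0.041 in stretches of 40 or more probes, 0.055 with the outermost 10 probes as ends and 0.051 with the outermost 3 probes left out, each above 0 on 4 of 6 arrays (exact adjusted p = 0.33, 0.19 and 0.18 in this order). In odd-numbered stretches it was 0.093 and above 0 on 5 of 6 arrays. The input at the ends is in part set by the choice of the stretches, which begin and end on input probes called on.

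Probe by probe, the high ratio at side A lay in the outermost probes. The outermost probe averaged 0.07 ± 0.18 at side A and -0.37 ± 0.16 at side B (SD, n = 6 arrays). Going inwards from side A the ratio was -0.03 at probe 5, -0.18 at probe 10 and -0.26 at probe 15. From side B its mean stayed between -0.41 and -0.32 over the same probes, but single arrays differed in direction. There the outermost 3 probes minus probes 13 to 15 averaged -0.05 ± 0.17, between -0.19 and 0.24. The input signal climbed more slowly from side A, with 2.49 at the outermost and 2.71 at probe 5, against 2.70 and 3.24 from side B. The IP signal was higher at side A in the outermost probe (2.0, against 1.77 at side B) and lower there at probe 5 (2.13, against 2.28 at side B). At probe 8 it was higher at side A again (2.39, against 2.33), so its difference between the sides changed sign back and forth. At probe 10 the IP signals were alike (2.49 at side A and 2.48 at side B), and the input was 3.23 and 3.38. At probe 12 the IP was 2.53 and 2.43 and the input 3.29 and 3.32, in the same order of sides.

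**Figure D2:**
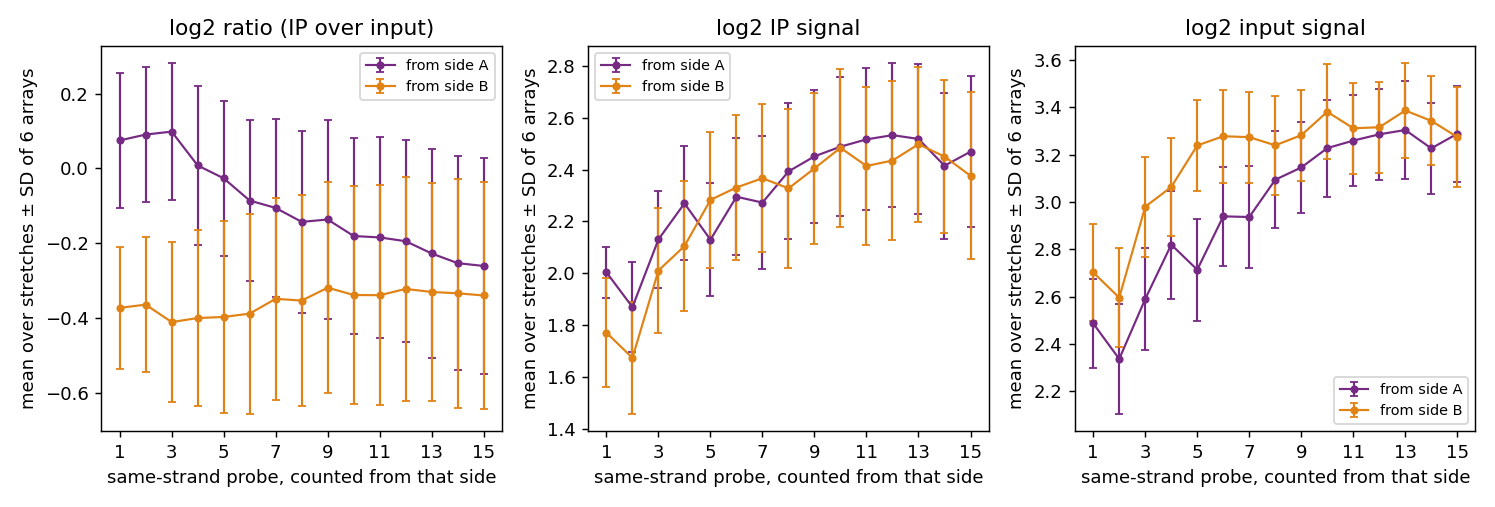
Mean ratio, IP signal and input signal (log2) of the outer 15 same-strand probes of the 511 long stretches, counted inwards from side A and from side B, with the SD of 6 arrays as bars. The side A ratio starts at 0.07 and approaches the side B ratio within 15 probes, and the input is lower from side A than from side B over the first 10 probes.

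The decline next to side A was alike in the length classes. The outermost 3 probes minus probes 13 to 15 from side A gave 0.34 ± 0.17 in stretches of 30 to 39 probes, 0.33 ± 0.17 in those of 40 to 49 and 0.33 ± 0.18 in those of 50 or more (SD, n = 6 arrays, all above 0). From side B these classes gave -0.14 ± 0.14, 0.04 ± 0.19 and 0.09 ± 0.21 in this order, of mixed sign in each. A second, shallower decline lay inside the stretches, measured between positions that lie further apart in longer stretches by construction. Probes 13 to 15 from side A minus probes 13 to 15 from side B gave 0.03 ± 0.0050 in stretches of 30 to 39 probes, where the positions are close together. The same difference was 0.12 ± 0.048 in stretches of 40 to 49 probes and 0.20 ± 0.058 in those of 50 or more, above 0 on all 6 arrays in each class. Because the distance compared grows with length, these values do not show a steeper decline in longer stretches. In stretches of 50 or more the inner decline lay in the input, with -0.22 ± 0.028 from side A to side B positions, while the IP difference was -0.02 ± 0.083 and of mixed sign. These length classes were described and not tested.

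The end difference was about as large in shorter stretches. It was 0.29 ± 0.055 in long stretches and 0.29 ± 0.055 in the 619 stretches of 20 to 29 probes, a difference of 0.0037 ± 0.047 with 4 arrays above 0 (exact p = 0.91, adjusted p = 0.91). Against the 957 stretches of 10 to 19 probes, at 0.25 ± 0.073, long stretches were 0.041 ± 0.069 higher, again on 4 arrays (exact p = 0.22, adjusted p = 0.25). Among long stretches, split into 3 equal classes by the input of the arrays with the other replicate number, the class of highest input had an end difference 0.050 ± 0.019 above that of lowest input, above 0 on all 6 arrays (exact p = 0.031, adjusted p = 0.05). That contrast was -0.0041 in odd-numbered and 0.14 in even-numbered stretches, so that it lay in the even-numbered stretches. The odd-numbered value had an SD of 0.016 with 4 of 6 arrays above 0 (exact p = 0.62), and the even-numbered value was above 0 on 6 of 6. Over both strands the end difference was 0.26 ± 0.041, 0.31 ± 0.077 and 0.31 ± 0.053 from the lowest to the highest input class. It thus did not rise further from the middle to the highest class.

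The overall level, in contrast, was lower in long than in shorter stretches. The mean ratio was -0.11 ± 0.20 in stretches of 30 to 39 probes, -0.39 ± 0.32 in 40 to 49, -0.51 ± 0.37 in 50 to 74 and -0.47 ± 0.49 in 75 or more, against 0.05 ± 0.065 in 20 to 29 and 0.25 ± 0.11 in 10 to 19 (SD, n = 6 arrays). The arrays differed widely in the size of this difference. Long stretches minus stretches of 10 to 19 probes was -0.61 and -0.02 for Red1-FTP replicates 1 and 2, -0.32 and -0.74 for Mtl1-FTP, and -1.03 and -0.33 for Red5-FTP. The mean of -0.51 ± 0.36 was below 0 on all 6 arrays (exact p = 0.031, adjusted p = 0.05). Replicate 2 of Red1-FTP lay near 0 and was above it with the median over stretches (0.12), in stretches with a quiet opposite strand (0.08) and in odd-numbered stretches (0.01), each leaving 5 of 6 arrays below 0 (exact p = 0.062). Against stretches of 20 to 29 probes the difference was -0.31 ± 0.23 and below 0 on 5 of 6 arrays, the exception being replicate 2 of Red1-FTP at 0.01 (exact p = 0.062, adjusted p = 0.083). The input differed as well, with a mean input signal of 3.15 in stretches of 30 to 39 probes against 2.72 in those of 10 to 19, and the part of the input level in the result was not tested.

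**Figure D3:**
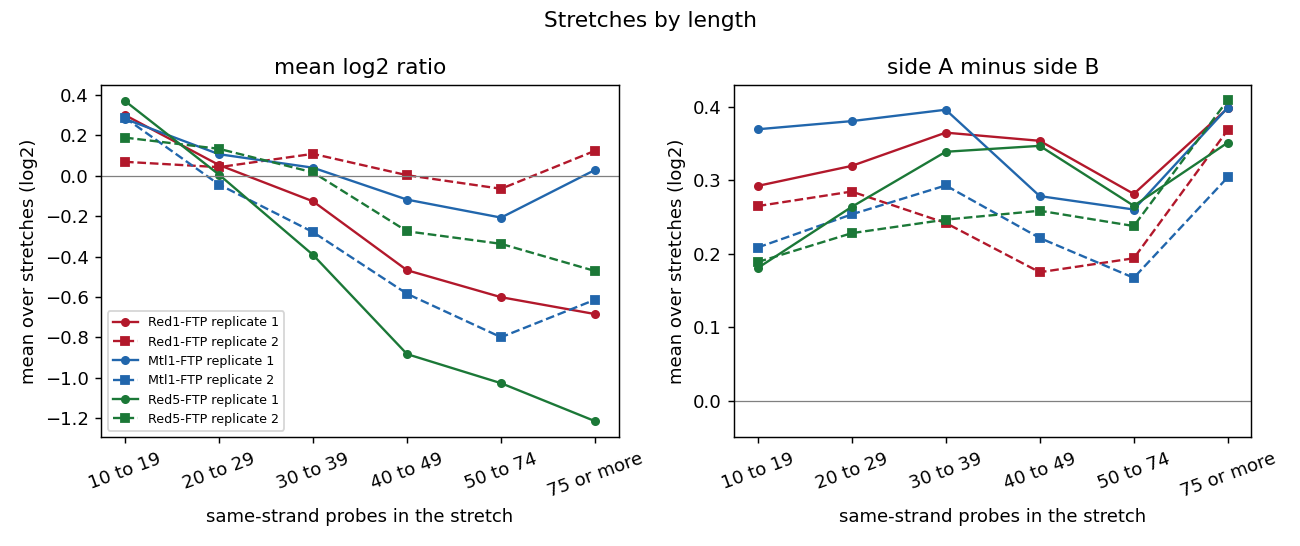
Mean log2 ratio (left) and side A end minus side B end (right) by length class of the stretches, 1 line an array. The mean ratio at 75 or more probes lies below that at 10 to 19 on 5 arrays, by amounts that differ (it reaches -1.21 for Red5-FTP replicate 1), and above it on Red1-FTP replicate 2 (0.12, against 0.07 at 10 to 19), while the end difference stays between 0.17 and 0.41 in every class and array.

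Single stretches were tested with limma on all 2087 stretches of 10 or more probes, with Benjamini-Hochberg adjustment over all of them. By their mean, 70 long stretches (13.7%) were enriched in IP and 214 (41.9%) were depleted at an adjusted p under 0.05, against 29% enriched and 24.7% depleted among all 2087. Enriched stretches had a median ratio of 0.53 and a median of 34.5 probes, and depleted stretches a median ratio of -0.70 and 43.5 probes. Their median input signals were close (3.0 in enriched and 2.89 in depleted stretches). The median IP signals were 3.08 and 1.66, a gap that follows from calling the stretches on the ratio. On 6 of 6 arrays 62 long stretches lay above 0 (12.1%, with 25.5% among all 2087) and 183 below (35.8%, with 21.6%).

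These counts depended on a few arrays and on the zero point. Without replicate 2 of Mtl1-FTP 118 long stretches were depleted, and without replicate 1 of Red1-FTP 126 were. With slide as a fixed block 95 were enriched and 324 depleted, and with slide as a random block 45 and 131. The mean of all probes lay 0.23 to 0.42 above the median on the 6 arrays. Centring on that mean instead left 25 enriched and 387 depleted, so that 6.07% of the called long stretches were enriched, where median centring gave 24.6%. The counts under these settings are of long stretches alone, so they give no comparison with shorter stretches.

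The end difference is free of the zero point, but not of the input that chose the stretches. It was above 0 in 296 long stretches (57.9%) and below 0 in 38 (7.44%) at an adjusted p under 0.05 (limma), against 54% and 9.1% among all 2087 stretches. The median difference was 0.45 in stretches higher at side A and -0.61 in those higher at side B. Both strands took part, with 155 odd-numbered and 141 even-numbered stretches higher at side A, and 21 and 17 higher at side B. On 6 of 6 arrays 264 lay above 0 (51.7%, with 46.4% among all 2087) and 23 below (4.50%, with 6.85%). Without replicate 2 of Mtl1-FTP 25 long stretches were higher at side B. Enriched and depleted stretches had alike shares higher at side A, 41 of 70 (58.6%) and 122 of 214 (57.0%). Over the 511 stretches the correlation of mean ratio and end difference was 0.13, a description over stretches that share arrays and probes.

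**Figure D4:**
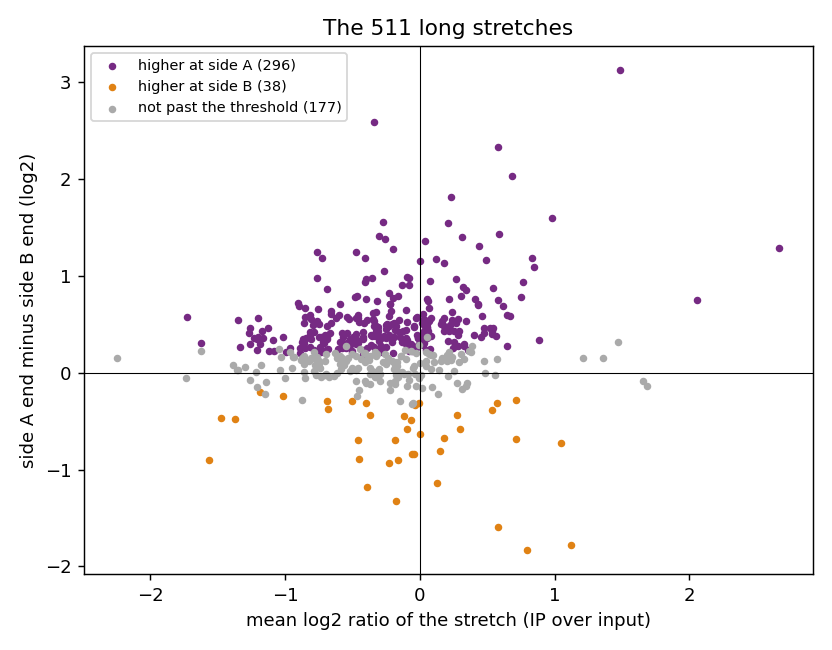
Mean log2 ratio of each long stretch (horizontal) against its side A end minus side B end (vertical), fitted over 6 arrays, coloured by the limma call on the end difference at an adjusted p under 0.05. The 296 stretches higher at side A spread over the whole range of mean ratios, and 38 lie higher at side B.

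In limma on all 20870 bins, 702 of the 5110 bins of long stretches were enriched (13.7%) and 2101 depleted (41.1%), against 25.2% and 24.5% of all bins. Bin 1 was enriched in 144 stretches (28.2%) and depleted in 130 (25.4%). Bin 10 was enriched in 45 (8.81%) and depleted in 293 (57.3%). In stretches of 10 to 29 probes bin 1 was enriched in 43.1% and depleted in 13.6%, and bin 10 was enriched in 22.3% and depleted in 30.6%. In 11 long stretches (2.15%) all 10 bins were enriched, against 5.84% of stretches of 10 to 29 probes. In 78 (15.3%) all were depleted, against 3.74%, and in 26 (5.09%) none was called, against 5.20%. Without replicate 2 of Mtl1-FTP 1228 bins of long stretches were depleted.

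Enriched and depleted bins occurred within the same stretch in 98 cases (19.2%), a share close to that in stretches of 10 to 29 probes (19.7%). In 70 of the 98 (71.4%) the enriched bins lay nearer side A, in 27 nearer side B, and in 1 at the same mean position. Shorter stretches were alike in this too, with the enriched bins nearer side A in 72.6% of those that held both. Of the 214 stretches depleted as a whole, 18 still held an enriched bin. The highest bin of a stretch was bin 1 in 237 of 511 and bin 10 in 44, and the lowest was bin 1 in 20 and bin 10 in 193. The largest step between neighbouring bins, going from side A to side B, was downwards in 370 stretches and upwards in 141. It lay between bins 1 and 2 in 125 stretches (105 down) and between bins 9 and 10 in 99 (56 down, 43 up). Its median size was 0.46, and it was over 1 in 37 stretches downwards and in 25 upwards. The highest and lowest bins and the steps were counted in long stretches only, so they are not shown to be particular to these.

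The stretch with the largest end difference, sp40c_111559 to sp40c_111649 (46 probes, odd), had its highest ratio in the outermost part of side A. Its end difference was 3.29 and 3.1 in Red1-FTP replicates 1 and 2, 2.47 and 2.84 in Mtl1-FTP, and 3.33 and 3.75 in Red5-FTP (3.13 ± 0.094, SE, limma adjusted p = 3.2e-07). All 6 arrays showed it, and the ratio declined along the length, with a mean of 5.62 in bin 1, 2.98 in bin 2, 0.88 in bin 4 and 0.54 in bin 10. Bin 1 lay far above the last 6 bins, which were between 0.26 and 0.62. The IP signal was 7.81 in bin 1 and at most 5.78 in the other bins, while the input signal of 2.75 in bin 1 lay within the range of the others, between 1.87 and 5.24. A similar edge at side A was found in sp40c_45931 to sp40c_45989 (30 probes, odd), with 3.27 in bin 1 and -1.36 in bin 10, and in sp40c_134685 to sp40c_134757 (37 probes, odd), with 3.85 in bin 1 and -0.10 in bin 10. Their end differences were 2.59 ± 0.20 and 2.03 ± 0.13 (SE), above 0 on 6 of 6 arrays.

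In sp40c_96274 to sp40c_96450 (89 probes, even) the change was a plateau and a step instead. Bins 1 to 4 lay between 1.52 and 2.15 and bins 6 to 10 between -0.66 and -0.34, with 0.34 in bin 5. The end difference was 1.98 and 2.77 in Red1-FTP, 2.33 and 2.66 in Mtl1-FTP, and 2.28 and 1.99 in Red5-FTP (2.34 ± 0.12, SE), so the groups overlapped. The level of the whole stretch varied more, with 0.08 and 1.66 in Red1-FTP, 0.92 and 0.59 in Mtl1-FTP, and -0.22 and 0.45 in Red5-FTP, and its mean of 0.58 did not pass the test (limma adjusted p = 0.055). The stretch sp40c_117860 to sp40c_117976 (59 probes, even) declined gradually, with 1.07 in bin 1, 0.47 in bin 5 and -1.15 in bin 10 (end difference 1.82 ± 0.17, SE).

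The opposite order, with the higher ratio at side B, had equally sharp members. In sp40c_61688 to sp40c_61766 (40 probes, even) the ratio was between -0.19 and 0.49 in bins 1 to 9 and 4.73 in bin 10. Its end difference was -1.81 and -1.97 in Red1-FTP, -1.24 and -1.49 in Mtl1-FTP, and -1.73 and -1.32 in Red5-FTP (-1.59 ± 0.088, SE, limma adjusted p = 4.5e-06). Every array placed the high value in that 1 bin of 4 probes. The stretch sp40c_137021 to sp40c_137089 (35 probes, odd) had 0.61 in bin 1 and 4.03 in bin 10 (end difference -1.78 ± 0.090, SE).

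In sp40c_91590 to sp40c_91746 (79 probes, even) the profile was 2 flat parts. Bins 1 to 5 lay between -1.13 and -0.71 and bins 6 to 10 between 0.43 and 0.67, and its mean of -0.18 over the whole length did not pass the test (limma adjusted p = 0.13). Its end difference of -1.33 ± 0.15 (SE) was below 0 on 6 of 6 arrays, between -1.84 and -0.67. The largest difference in this direction was found in sp40c_70655 to sp40c_70719 (33 probes, odd) at -1.83 ± 0.15 (SE), where 46.9% of the opposite-strand probes were on. Smaller was that of sp40c_72539 to sp40c_72621 (42 probes, odd) at -1.19 ± 0.081 (SE), which also differed between baits.

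**Figure D5:**
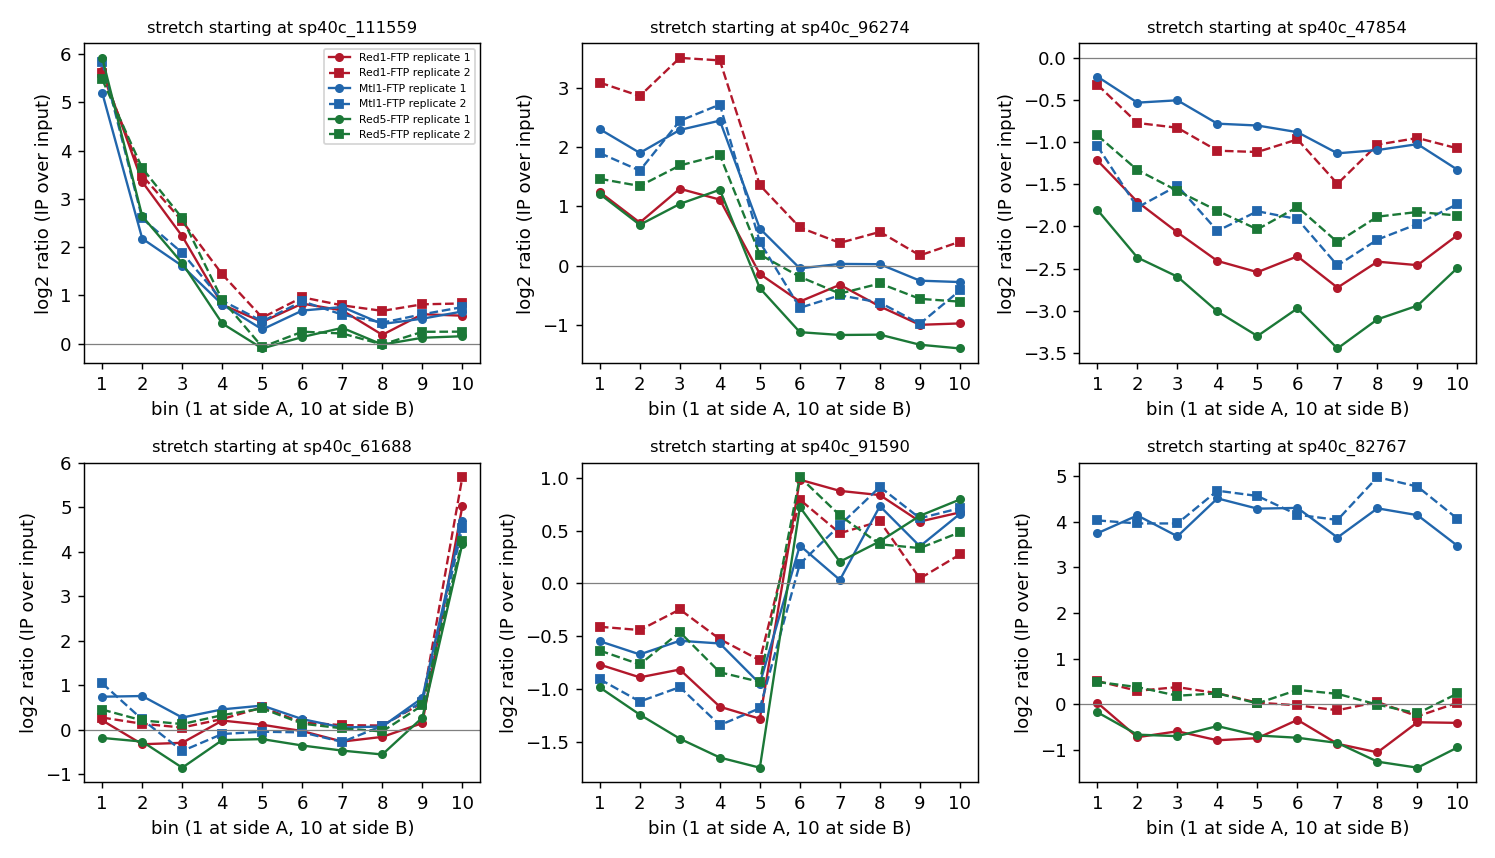
Log2 ratio of IP over input by bin in 6 single long stretches, 1 line an array. The top row shows an edge at side A (sp40c_111559), a step after bin 4 (sp40c_96274) and depletion along the whole length (sp40c_47854), and the bottom row an edge at side B (sp40c_61688), a step up after bin 5 (sp40c_91590) and a stretch that was high with Mtl1-FTP alone (sp40c_82767).

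By mean ratio, the most enriched long stretch was sp40c_106805 to sp40c_106873 (35 probes, odd). It had 3.40 and 3.58 in Red1-FTP replicates 1 and 2, 2.16 and 1.83 in Mtl1-FTP, and 1.82 and 3.21 in Red5-FTP (2.67 ± 0.18, SE, limma adjusted p = 0.00011). Its mean signals were 4.24 in IP and 2.13 in input, and its bins lay between 1.75 and 3.76. The next, sp40c_91146 to sp40c_91268 (62 probes, even), averaged 2.05 ± 0.27 (SE), with 42.6% of its opposite strand on. The edge stretch sp40c_111559 ranked 5 at 1.49 ± 0.087 (SE).

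The ranks 3 and 4 went to sp40c_114398 to sp40c_114596 and sp40c_114128 to sp40c_114326 (100 probes each, even), also the stretches with the highest input (9.17 and 9.15). They averaged 1.69 ± 0.22 and 1.66 ± 0.22 (SE). On single arrays they were almost equal, with 0.65 and 2.32 against 0.60 and 2.30 in Red1-FTP replicates 1 and 2, and their input signals had a correlation of 0.80 over 100 probes in order. The stretch ranked 3 by input, sp40c_113990 to sp40c_114056 (34 probes), averaged 1.47 ± 0.25 (SE) and had a correlation of 0.92 with the first 34 probes of sp40c_114128 from side A. These 3 lay close in number, and whether they share sequence is not given in the sources used here, so they were not read as separate cases. Over 50% of their opposite-strand probes were on, and none of the 3 had an end difference that passed the test.

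Depletion along the whole length was strongest in sp40c_53258 to sp40c_53324 (34 probes, even). It had -2.38 and -1.64 in Red1-FTP, -1.99 and -2.73 in Mtl1-FTP, and -2.74 and -1.99 in Red5-FTP (-2.25 ± 0.16, SE, limma adjusted p = 0.00016). Its input signal was high (4.09) and its IP signal low (1.29), and its end difference of 0.16 did not pass the test (limma adjusted p = 0.14). The longest stretch of all, sp40c_47854 to sp40c_48130 (139 probes, even), ranked 3 in depletion, with -2.20 and -0.96 in Red1-FTP, -0.83 and -1.85 in Mtl1-FTP, and -2.81 and -1.72 in Red5-FTP (-1.73 ± 0.23, SE). It kept the common slope in spite of its depletion, with -0.92 in bin 1 and -1.77 in bin 10 and an end difference of 0.58 ± 0.081 (SE) that was above 0 on 6 of 6 arrays.

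The next longest stretches were depleted too. Those of 136 and 125 probes, sp40c_17681 to sp40c_17951 and sp40c_108548 to sp40c_108796, averaged -1.0 ± 0.18 and -1.4 ± 0.21 (SE), with end differences of 0.21 ± 0.081 and 0.55 ± 0.11 (SE) that passed the test. In sp40c_44297 to sp40c_44381, sp40c_103245 to sp40c_103315 and sp40c_25556 to sp40c_25658 the means were -1.73, -1.63 and -1.62. Of these 3, sp40c_103245 alone had an end difference past the threshold (0.31 ± 0.087, SE, limma adjusted p = 0.014).

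Between baits, hardly any long stretch differed. By mean ratio 1 long stretch passed the test for Red1-FTP minus Mtl1-FTP (below 0, with 0.0958% among all 2087) and for Mtl1-FTP minus Red5-FTP (above 0, 0.0958%). For Red1-FTP minus Red5-FTP 0 passed by limma (0%), with 13 at an unadjusted p under 0.05 (2.54%, with 6.66% among all 2087). With slide as a fixed block, which leaves a single residual degree of freedom, 102, 277 and 129 passed for Red1-FTP minus Mtl1-FTP, Mtl1-FTP minus Red5-FTP and Red1-FTP minus Red5-FTP. These counts are of long stretches alone, so they do not show whether shorter stretches gained calls alike.

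The stretch that passed was sp40c_82767 to sp40c_82845 (40 probes, odd), and it was high with one bait throughout its length. Its mean ratio was -0.58 and 0.12 in Red1-FTP replicates 1 and 2, 4.02 and 4.32 in Mtl1-FTP, and -0.78 and 0.19 in Red5-FTP. The Mtl1-FTP arrays did not overlap with the others, and Mtl1-FTP minus Red5-FTP was 4.47 (limma adjusted p = 0.013) and Red1-FTP minus Mtl1-FTP -4.40 (adjusted p = 0.023). The IP signal carried it, with 5.25 and 5.34 in Mtl1-FTP against at most 1.71 on the other arrays, whereas the input lay between 1.32 and 2.07 on all 6. Without either Mtl1-FTP array it did not pass, with adjusted p between 0.12 and 0.20 over both differences, and Red1-FTP minus Mtl1-FTP did not pass without either Red1-FTP array (adjusted p = 0.22 and 0.088).

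In end differences, 1 long stretch was below 0 for Red1-FTP minus Mtl1-FTP (0.144% among all 2087), 1 above 0 (0.431%) and 1 below 0 (0.0479%) for Mtl1-FTP minus Red5-FTP, and 0 by limma for Red1-FTP minus Red5-FTP (0%), where 28 had an unadjusted p under 0.05 (5.48%, with 4.98% among all 2087). In sp40c_132705 to sp40c_132777 (37 probes, odd) the A end minus the B end was -0.07 and 0.32 in Red1-FTP, 2.08 and 2.09 in Mtl1-FTP, and 0.11 and 0.41 in Red5-FTP. Mtl1-FTP minus Red5-FTP was 1.83 (limma adjusted p = 0.023) and Red1-FTP minus Mtl1-FTP -1.96 (adjusted p = 0.013). In sp40c_72539 all 6 values were below 0, with -1.21 and -1.36 in Red1-FTP, -1.75 and -1.75 in Mtl1-FTP, and -0.69 and -0.35 in Red5-FTP, and Mtl1-FTP minus Red5-FTP was -1.23 (adjusted p = 0.047). Both calls were lost when either Mtl1-FTP replicate was left out, with adjusted p between 0.098 and 0.40, and when replicate 1 of Red5-FTP was (0.062 for sp40c_132705 and 0.094 for sp40c_72539).

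From array to array the long stretches kept much of their order. The correlation of their mean ratios between 2 arrays was 0.67 to 0.92 over 511 stretches, with 0.80, 0.92 and 0.89 between the replicates of Red1-FTP, Mtl1-FTP and Red5-FTP. That of their end differences was 0.56 to 0.85, with 0.76, 0.85 and 0.80 between replicates. Arrays of different baits reached 0.89 and 0.85, both between the replicate 1 arrays of Red1-FTP and Red5-FTP on slide 1. Replicates of one bait were thus not always the most alike, but they always lay on different slides. Between arrays of different baits, the correlation of mean ratios was 0.71 to 0.89 on the same slide and 0.67 to 0.87 on different slides. For end differences these ranges were 0.64 to 0.85 and 0.56 to 0.82. The ranges overlapped, and the parts of slide and bait in the likeness were not tested. The points of these correlations share probes, and the arrays share their dye assignment.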

How the data were processed

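RNA purified with Red1-FTP, Mtl1-FTP or Red5-FTP (Cy5) and whole-cell RNA (Cy3) were reverse transcribed with random hexamers and hybridised to 6 two-colour tiling arrays by the authors. The deposited scanner files, made with Agilent Feature Extraction 10.7.3.1, hold a processed intensity for each channel, background-subtracted and dye-normalized, a log10 ratio and a p-value for each spot. The deposited value table holds the log2 ratio, set to 0 where that p-value was 0.05 or more (54.0 to 63.8% of probes). Probe positions, the genome build and the probe sequences are not given in the sources used here, and a gene table for the organism matched 0 probes.

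Processed intensities were taken to log2, spots flagged as outliers (40 to 81 an array) were left out, and each array's median ratio over non-control probes was set to 0. Each stretch was cut into 10 bins by position, and an end was 3 bins. Array values were the mean over stretches and were tested by exact permutation of the signs of the 6 arrays (two-sided), adjusted over 8 contrasts. These exact tests took no account of slide. Stretches of 10 or more probes were fitted with limma 3.58.1 (R 4.3.3) with bait as factor, and the mean of the baits or a difference between baits was tested with Benjamini-Hochberg adjustment at 0.05. Scripts were tested on simulated data. Alternatives were normexp (offset 50) with and without loess, signals before dye normalization, mean centring, the value table, other stretch, end and length definitions, single strands, replicate and slide blocks, and each array left out.

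The stretches named are the 5 highest and 5 lowest by mean ratio and by end difference among those past the threshold and of one sign on 6 of 6 arrays, the 3 longest, the 3 with the highest input and those that differed between baits. The members and this list were chosen with earlier results of these data known. The steps between bins and the probe positions near each side were described after the data had been seen and not tested.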

Additional observations from a re-analysis of the deposited data

Results flagged for a closer look

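In 3 long stretches the baits differed by limma's test of the difference itself. For sp40c_82767 the mean ratio of Mtl1-FTP minus Red5-FTP was 4.47 (adjusted p = 0.013, higher in 2 of 2 Mtl1-FTP arrays than in any Red5-FTP array). For sp40c_132705 the A end minus the B end differed by 1.83 between Mtl1-FTP and Red5-FTP (adjusted p = 0.023), and for sp40c_72539 by -1.23 (adjusted p = 0.047), again with no overlap of the 2 arrays of each bait. The share of such calls among all 2087 stretches was 0.0958% for means and 0.431% above and 0.0479% below 0 for end differences. Not every alternative kept these calls. Of the alternatives tried, the call of Mtl1-FTP minus Red5-FTP held in 15 of 18 for sp40c_82767, 13 of 19 for sp40c_132705 and 8 of 19 for sp40c_72539, and with the replicate block 0 end differences between baits passed.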

How the results depend on the processing

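The A end minus the B end in long stretches kept its sign under every processing tried, between 0.21 and 0.33, and between 0.28 and 0.31 with each array left out in turn, where 5 arrays allow no adjusted p under 0.05. Its adjusted p moved with the number of contrasts of the family that tied at the smallest p. With fewer tied it was 0.062 in the table with zeros and with the median over stretches, 0.083 with a quiet opposite strand and 0.10 in odd-numbered stretches. It was 0.042 with more tied, and with a family of 4 for the outermost 10 probes as ends. At that adjusted p, signals before dye normalization gave 0.29 for the ratio, 0.11 for IP, -0.19 for input, 0.073 for highest minus lowest of 3 input classes, and -0.32 and -0.55 for the mean ratio against stretches of 20 to 29 and 10 to 19 probes. With no bridging of off probes the values were 0.26 for the ratio, 0.16 for IP, -0.091 for input, 0.092 for long minus 10 to 19 probes in end difference, 0.069 for the input classes and -0.43 for the mean ratio against 10 to 19 probes. With the outermost 10 probes as ends they were 0.33 for the ratio, -0.27 for input and 0.055 for the input classes, but the IP difference, also 0.055, had an adjusted p of 0.19. In even-numbered stretches only they were 0.29 for the ratio, 0.10 for IP, -0.19 for input, 0.14 for the input classes, and -0.34 and -0.55 for the mean ratio against 20 to 29 and 10 to 19 probes. In odd-numbered stretches only the input classes gave -0.0041. Within slide 3 the IP difference was 0.028 and the input difference -0.23, and within slide 2 the input classes gave 0.028. The cause of these changes was not tested.

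Counts of called stretches depended more on the processing. Counts and shares of calls, here and below, are of long stretches or their bins alone, and those of shorter stretches are not given. Of the long stretches, 7.05% were enriched and 66.3% depleted before dye normalization, 4.89% and 75.7% after centring on the mean of all probes, and 7.24% enriched in the table of values with zeros. With slide as a fixed block 63.4% were depleted, and with slide as a random block 8.81% were enriched and 25.6% depleted. Among stretches of 40 or more probes 8.05% were enriched. With a log2 difference of at least 0.5 required as well, 7.24% were enriched, 23.9% higher at side A and 4.11% higher at side B. Of the bins, 7.61% were enriched before dye normalization, 6.09% enriched and 68.7% depleted after mean centring, and 6.50% enriched in the table with zeros. Leaving out 1 array gave 23.1 to 51.9% of long stretches depleted, 4.89 to 7.63% higher at side B and 24.0 to 45.6% of bins depleted.

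The number of long stretches whose mean differed between Red1-FTP and Mtl1-FTP was 3 with normexp, 102 with slide as a fixed block, and 0 before dye normalization, without bridging and in even-numbered stretches. For Mtl1-FTP minus Red5-FTP it was 277 with slide as a fixed block and 0 with the table of zeros, without bridging and in even-numbered stretches, and for Red1-FTP minus Red5-FTP it was 129 with slide as a fixed block. For end differences Mtl1-FTP minus Red5-FTP gave 26 with slide as a fixed block, 9 with it as a random block, 1 with normexp, before dye normalization, in the table with zeros, with probes above background in both channels or at 40 or more probes, and 0 in 5 other settings. Red1-FTP minus Mtl1-FTP gave 0 in 7 settings and Red1-FTP minus Red5-FTP gave 1 with slide as a fixed block. With 1 array left out these counts were 0 to 1 for each difference in means and for end differences that involve Red1-FTP, and 0 to 3 for Mtl1-FTP minus Red5-FTP. Of 511 values for single named stretches under the alternatives, 479 kept direction and side of the threshold, 0 changed direction, and the others lost the call in a difference between baits.

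Replicate numbers did not pair the arrays. Deviations from the bait means had a correlation of 0.82 between Red1-FTP and Red5-FTP, whose arrays shared slides, and of -0.68 and -0.79 between Mtl1-FTP and these. With the replicate block 62 long stretches were enriched and 186 depleted (12.1 and 36.4%), 298 higher at side A and 37 at side B, and 0 end differences between baits passed. Background limits the low end: on the tiling 47.1 to 57.5% of input probes were well above it.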
